A study of Mus musculus with 24 samples.

Results

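Adrenergic receptors and the cAMP pathway below them were described in mouse hearts after experimental stroke. The 9 genes chosen by symbol were receptors, adenylyl cyclases, phosphodiesterases, a G protein regulator and a cAMP-responsive transcription factor. Of these, 7 had a row with that symbol among the 24011 genes tested: Adra1b (Entrez Gene 11548), Adcy5 (224129), Adcy6 (11512), Pde4b (18578), Pde4d (238871), Rgs2 (19735) and Crem (12916). The other 2, both receptor genes, were not listed in the platform annotation used here and were not analysed here. Of the receptors, only Adra1b is therefore described.

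Hearts came from C57BL/6J mice that were 8 weeks old. The hearts were collected at 24 h or 72 h, following either middle cerebral artery occlusion (MCAO), a surgical model of ischaemic stroke, or a sham operation. Total RNA was hybridised to Affymetrix arrays, 24 in all, with 6 arrays in each of the 4 groups. Whether every array holds the RNA of 1 animal is not stated by the labels, and p-values then reflect only how far these samples scatter, which may be technical. Heart tissue was measured in bulk. In such samples, fewer cells of a type and less RNA per cell cannot be told apart.

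Noradrenaline from sympathetic nerves and adrenaline from the adrenal medulla act on the heart through adrenergic receptors. Beta receptors couple to Gs, which turns on adenylyl cyclases, and the cAMP they make activates protein kinase A (PKA), which speeds and strengthens the beat. Alpha-1 receptors couple to Gq instead. Phosphodiesterases break cAMP down, RGS proteins shorten G protein signals, and CREB family factors carry the cAMP signal to genes whose promoters hold a cAMP response element (CRE).

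At 24 h the phosphodiesterase genes Pde4b and Pde4d were lower after MCAO than after sham, by 1.41-fold and 1.47-fold. The cyclase gene Adcy6 and the G protein regulator gene Rgs2 were higher, by 1.24-fold and 1.58-fold. Both calls were close to the threshold, and they held in 11 and 6 of 24 fits that left out 1 array. Adra1b, Adcy5 and Crem did not pass the test at 24 h. None of the 7 passed it at 72 h, where the changes of Adra1b, Adcy6 and Rgs2 were above 0 with 95% intervals that left out 0. Such intervals are not adjusted for the number of genes. From sham 24 h to sham 72 h they also left out 0 for Adra1b (-0.57 to -0.10), Adcy6 (0.09 to 0.54) and Pde4b (-0.39 to -0.08), and none passed. The MCAO change of Pde4b differed between the times. With a covariate described below, this difference and the 24 h calls of Pde4b and Pde4d did not pass.

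The promoters of the 3 genes with the largest changes at 24 h are shown first, because a CRE in a promoter is the textbook link from cAMP to a gene. Each is the 250 bases before a RefSeq start site in GRCm38.p6, read 5′ to 3′ on the gene's strand. Capitals mark the CRE half-site TGACG on either strand (CGTCA where it lies on the other strand). They are Pde4b at its first listed start site (chr4:102421305-102421554, plus strand), Pde4d (chr13:108653927-108654176, plus strand) and Rgs2 (chr1:144004150-144004399, minus strand).
Pde4b: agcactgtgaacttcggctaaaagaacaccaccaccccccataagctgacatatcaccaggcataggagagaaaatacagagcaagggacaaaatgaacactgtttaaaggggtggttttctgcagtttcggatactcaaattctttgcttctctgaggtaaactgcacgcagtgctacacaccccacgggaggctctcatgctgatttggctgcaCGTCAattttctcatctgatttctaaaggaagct
Pde4d: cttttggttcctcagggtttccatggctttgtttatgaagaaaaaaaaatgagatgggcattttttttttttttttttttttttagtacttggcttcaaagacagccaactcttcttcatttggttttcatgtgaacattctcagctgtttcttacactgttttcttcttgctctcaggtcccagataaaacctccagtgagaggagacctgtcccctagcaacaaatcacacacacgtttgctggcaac
Rgs2: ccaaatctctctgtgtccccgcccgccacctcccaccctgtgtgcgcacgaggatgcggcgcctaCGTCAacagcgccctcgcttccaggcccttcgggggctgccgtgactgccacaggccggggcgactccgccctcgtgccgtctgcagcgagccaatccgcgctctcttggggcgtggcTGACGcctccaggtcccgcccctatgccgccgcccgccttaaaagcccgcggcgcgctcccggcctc
The Pde4b window held 1 half-site, whose first base lies 34 bases before the start. The Rgs2 window held 2, at 185 and 67 bases before the start, and the Pde4d window held none.

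Of the 7 genes, 5 had a window in the RefSeq table, 9 windows in all because Adra1b and Pde4b have several start sites. Half-sites were found in 2 of these 9 windows, both printed above, and no window held the full element TGACGTCA. Over all 32851 promoter windows of that length, 17.8% held the half-site and 1.55% the full element, and every full element also counts as a half-site. By comparison, all 11 of the CREB target genes that had a window held a half-site in at least 1 of them, in 12 of 18 windows. Those genes are known for such elements, so their share is a check of the search. A match is a run of letters, and nothing about binding was measured.

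All values below are the deposited log2 values, so a difference of 1 is a doubling. They can be set side by side for 1 gene across arrays. Between genes they are read only roughly, as high or low. Changes are MCAO minus sham, from a limma fit of the 4 groups, and adjusted p-values are Benjamini-Hochberg values over all 24011 genes, with a threshold of 0.05. The arrays read as heart: the 8 cardiomyocyte markers lay between 10.96 and 13.49 on every array. The nerve markers Th, Dbh and Snap25 lay between 3.31 and 3.91. The mean of each of the 7 genes was above that of at least 98.6% of 1365 odorant and vomeronasal receptor genes, which have no established role in heart.

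The MCAO 24 h group was the most spread out. Its arrays 5 and 6 correlated with the mean of the rest of their group at r = 0.976 and 0.971 over all genes, against 0.985 or more for every array of the other groups. The median SD of the 7 genes was 0.33 in that group, against 0.14 in sham 24 h, 0.16 in sham 72 h and 0.12 in MCAO 72 h. Of the 1365 odorant and vomeronasal receptor genes, 158 (11.6%) passed the test at 24 h and 1 (0.07%) at 72 h. Of all genes 21.8% and 2.35% passed at these times. The 24 h change of each of the 7 genes is therefore also given with arrays 5 and 6 left out, and with the first principal component of these receptor genes as a covariate. With that component the SE of the Pde4b change rose from 0.07 to 0.13 at 24 h and stayed at 0.07 at 72 h. The component thus overlaps the contrast of MCAO with sham at 24 h, and a call lost with it cannot be assigned to either. The part of these arrays and receptor genes in the results was not tested beyond these fits.

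**Figure D1:**
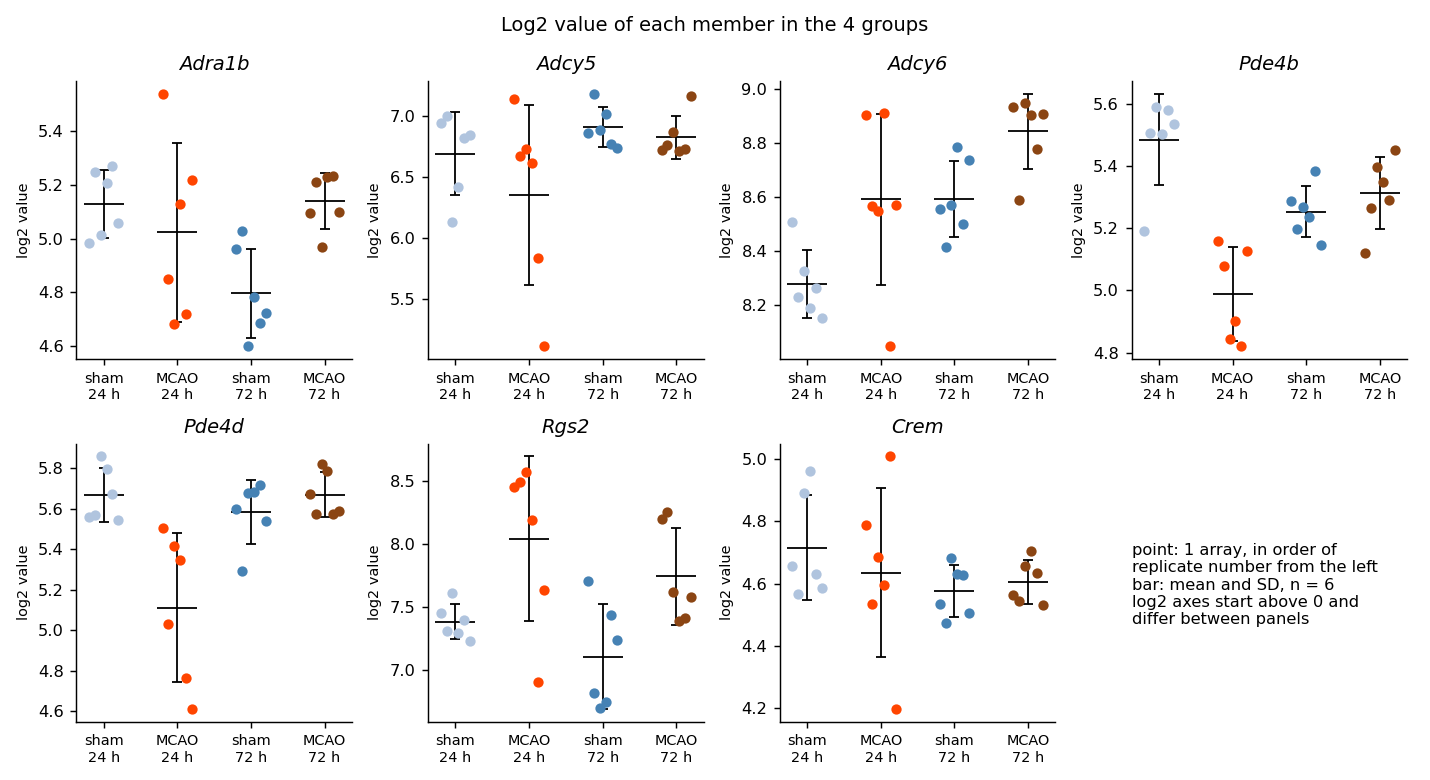
Log2 value of each of the 7 genes on every array, in 4 groups of 6. Points are arrays in order of replicate number, and bars are the mean and SD; the MCAO 24 h points for Pde4b and Pde4d all lie below those for sham 24 h, while Adcy6 and Rgs2 each have 1 MCAO 24 h point below sham.

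Among all genes at 24 h, 21.8% passed the test in either direction, 11.1% rose and 10.8% fell. Of the 7 genes 4 passed, with 2 that rose and 2 that fell. Among the 8294 genes with a mean in the range of the 7, 28.6% passed. The count of 4 is small, and nothing is read from it about the group as such.

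Adra1b encodes the alpha-1B receptor, which couples to Gq. In sham hearts at 24 h its value ran from 4.98 to 5.27 (median 5.13), and after MCAO from 4.68 to 5.54 (median 4.99). The MCAO arrays spread to both sides of the sham arrays, 1 above all of them and 3 below. The mean was 5.13 ± 0.13 (SD, n = 6) in sham and 5.02 ± 0.33 (SD, n = 6) after MCAO, a change of -0.11 (SE 0.11, adjusted p = 0.536). It was -0.08 without arrays 5 and 6 (adjusted p = 0.667) and 0.21 with the covariate (adjusted p = 0.616).

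At 72 h Adra1b ran from 4.60 to 5.03 in sham hearts (median 4.75) and from 4.97 to 5.23 after MCAO (median 5.16). The groups overlapped, but 5 of 6 MCAO arrays lay above the highest sham array. The change was 0.34 (SE 0.11, 95% interval 0.11 to 0.58), which missed the threshold (adjusted p = 0.137). It passed when array weights were used (0.34, adjusted p = 0.00902), when only the 72 h groups were fitted (0.34, adjusted p = 0.0170) and without array 1 of MCAO 24 h (0.34, adjusted p = 0.0498). Sham hearts at 72 h stood lower than sham hearts at 24 h, by -0.33 (SE 0.11, adjusted p = 1.00), so the MCAO 72 h mean of 5.14 ± 0.10 (SD, n = 6) was close to the 24 h sham mean. The difference between the effects at the times was 0.45 (SE 0.16, adjusted p = 0.138), and it passed without array 1 of MCAO 24 h (0.55, adjusted p = 0.0236).

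Adcy5 and Adcy6 encode the cyclases best known from the heart muscle cell, which make cAMP and are inhibited by calcium. For Adcy5 the sham 24 h arrays ran from 6.13 to 7.00 (median 6.83) and the MCAO 24 h arrays from 5.12 to 7.14 (median 6.64). The spread after MCAO came mainly from arrays 5 and 6, at 5.84 and 5.12, which both lay below every sham array. The change was -0.34 (SE 0.23, 95% interval -0.81 to 0.13, adjusted p = 0.305). Without those arrays it was 0.10 (SE 0.15, adjusted p = 0.666), so its sign rests on them. With the covariate it was 0.59 (SE 0.35, adjusted p = 0.407).

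At 72 h Adcy5 was 6.91 ± 0.16 in sham and 6.83 ± 0.18 after MCAO (SD, n = 6 each). The arrays overlapped, from 6.74 to 7.18 in sham and from 6.71 to 7.17 after MCAO. The change was -0.08 (SE 0.23, adjusted p = 1.00).

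Adcy6 rose at 24 h. Sham arrays ran from 8.15 to 8.51 (median 8.25) and MCAO arrays from 8.05 to 8.91 (median 8.57). Of the MCAO arrays 5 lay above every sham array, and array 5, at 8.05, lay below them all. The means were 8.28 ± 0.13 in sham and 8.59 ± 0.31 after MCAO (SD, n = 6 each), a change of 0.31 (SE 0.11) with an adjusted p of 0.0435.

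That call was close to the threshold. It was lost in 13 of 24 fits that left out 1 array, with adjusted p-values from 0.0501 to 0.108: MCAO 24 h arrays 1, 2, 3, 4 or 6, sham 24 h arrays 2 to 6, MCAO 72 h arrays 4 or 5, and sham 72 h array 1. It was also lost when only the 24 h groups were fitted (0.31, adjusted p = 0.149). Without the low array 5 the change was 0.42 (SE 0.09, adjusted p = 0.00207), and without arrays 5 and 6 it was 0.45 (adjusted p = 0.00154). With the covariate it was 0.76 (SE 0.17, adjusted p = 0.0252).

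At 72 h Adcy6 ran from 8.42 to 8.78 in sham (median 8.56) and from 8.59 to 8.95 after MCAO (median 8.91). The MCAO arrays sat in the upper part of the range and the groups overlapped. The change was 0.25 (SE 0.11, 95% interval 0.02 to 0.48, adjusted p = 0.358). The difference from the 24 h effect was -0.06 (SE 0.15, adjusted p = 0.873), so no difference between the times was detected. Sham hearts at 72 h stood above sham hearts at 24 h by 0.31 (SE 0.11, adjusted p = 1.00), about as far as MCAO at 24 h.

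Pde4b and Pde4d encode phosphodiesterases that break down cAMP near the receptors and calcium channels of the heart muscle cell. Pde4b fell at 24 h. Its sham arrays ran from 5.19 to 5.59 (median 5.52) and its MCAO arrays from 4.82 to 5.16 (median 4.99). The groups did not overlap, as was so for 5.53% of all genes at 24 h, and for 2 of the 7 described here. The means were 5.48 ± 0.15 in sham and 4.99 ± 0.15 after MCAO (SD, n = 6 each), a change of -0.50 (SE 0.07, adjusted p = 8.19e-05).

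The fall of Pde4b passed the test in all 24 fits that left out 1 array, and without arrays 5 and 6 it was -0.49 (adjusted p = 0.000235). With the covariate it was -0.31 (SE 0.13) and no longer passed (adjusted p = 0.227). At 72 h Pde4b ran from 5.14 to 5.38 in sham (median 5.25) and from 5.12 to 5.45 after MCAO (median 5.32). The MCAO arrays spanned the sham arrays on both sides. The change was 0.06 (SE 0.07, 95% interval -0.09 to 0.21, adjusted p = 0.978).

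The effect on Pde4b differed between the times by 0.56 (72 h minus 24 h, SE 0.11, 95% interval 0.34 to 0.77, adjusted p = 0.0100). It was the 1 gene of the 7 to pass this test, which 1.79% of all genes passed. This held in all 24 fits that left out 1 array, but not with the covariate (0.37, adjusted p = 0.336). The sham groups enter this difference: sham Pde4b at 72 h stood at 5.25 ± 0.08 (SD, n = 6), lower than at 24 h by -0.23 (SE 0.07, adjusted p = 0.928).

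Pde4d fell at 24 h too. Sham arrays ran from 5.55 to 5.86 (median 5.62) and MCAO arrays from 4.61 to 5.50 (median 5.19). The groups did not overlap, and MCAO arrays 5 and 6, at 4.76 and 4.61, were the lowest. The means were 5.67 ± 0.13 in sham and 5.11 ± 0.37 after MCAO (SD, n = 6 each), a change of -0.56 (SE 0.12, adjusted p = 0.00241).

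The Pde4d call held in all 24 fits that left out 1 array. Without arrays 5 and 6 the change shrank to -0.34 (SE 0.09, adjusted p = 0.0112). With the covariate it was -0.01 (SE 0.18, adjusted p = 0.981). At 72 h Pde4d ran from 5.29 to 5.72 in sham (median 5.64) and from 5.57 to 5.82 after MCAO (median 5.63). The groups overlapped over most of their range, and the change was 0.08 (SE 0.12, 95% interval -0.16 to 0.33, adjusted p = 0.995).

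The difference of the Pde4d effects, 0.64 (SE 0.17), missed the threshold with an adjusted p of 0.0531. It passed without array 1 (0.72, adjusted p = 0.0156), array 3 (0.70, adjusted p = 0.0335), array 4 (0.69, adjusted p = 0.0460) or array 6 (0.54, adjusted p = 0.0467) of MCAO 24 h.

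**Figure D2:**
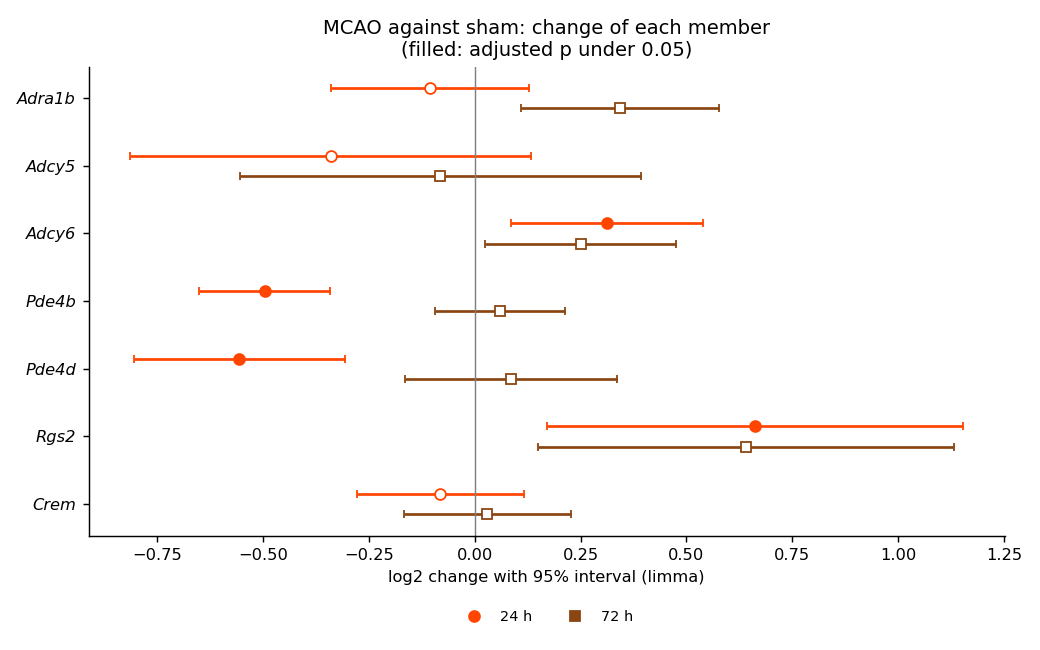
Log2 change from sham to MCAO for the 7 genes at 24 h (circles) and 72 h (squares), with 95% intervals from limma. Filled symbols have an adjusted p under 0.05: Pde4b and Pde4d lie to the left at 24 h and near 0 at 72 h, and Adcy6 and Rgs2 lie to the right at both times but are filled only at 24 h.

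Rgs2 encodes a GTPase-activating protein that turns off Gq and that also restrains adenylyl cyclase. It rose at 24 h. Sham arrays ran from 7.23 to 7.61 (median 7.35) and MCAO arrays from 6.90 to 8.57 (median 8.33). Here too 5 MCAO arrays lay above every sham array, and array 5, at 6.90, lay below them all. The means were 7.38 ± 0.14 in sham and 8.04 ± 0.66 after MCAO (SD, n = 6 each), a change of 0.66 (SE 0.24) with an adjusted p of 0.0483.

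The Rgs2 call was lost in 18 of 24 fits that left out 1 array, with adjusted p-values from 0.0507 to 0.108: MCAO 24 h arrays 1 to 4, any sham 24 h array, MCAO 72 h arrays 3 to 6, and sham 72 h arrays 2, 4, 5 or 6. It was lost as well when only the 24 h groups were fitted (0.66, adjusted p = 0.105). Without the low array 5 the change was 0.89 (SE 0.20, adjusted p = 0.00305), and without arrays 5 and 6 it was 1.05 (adjusted p = 0.000551). With the covariate it was 1.61 (SE 0.37, adjusted p = 0.0311).

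At 72 h Rgs2 ran from 6.69 to 7.70 in sham (median 7.02) and from 7.39 to 8.26 after MCAO (median 7.60). The MCAO arrays were mostly higher, and the groups overlapped. The change was 0.64 (SE 0.24, 95% interval 0.15 to 1.13), about the size of that at 24 h, and missed the threshold (adjusted p = 0.210). It passed with array weights (0.56, adjusted p = 0.0471) and without arrays 5 and 6 of MCAO 24 h (0.64, adjusted p = 0.0305). The difference between the times was -0.02 (SE 0.34, adjusted p = 0.983).

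Crem encodes a CREB family factor whose short form ICER is induced by cAMP and represses CRE promoters. These values are per gene and do not separate its forms. Sham 24 h arrays ran from 4.57 to 4.96 (median 4.64) and MCAO 24 h arrays from 4.20 to 5.01 (median 4.64). The medians were equal to 2 decimals and the MCAO arrays spread further both ways. The change at 24 h was -0.08 (SE 0.10, adjusted p = 0.582), against -0.06 without arrays 5 and 6 (adjusted p = 0.561) and -0.12 with the covariate (adjusted p = 0.775). It was 0.03 (SE 0.10, adjusted p = 1.00) at 72 h. At 72 h the means were 4.58 ± 0.08 in sham and 4.61 ± 0.07 after MCAO (SD, n = 6 each).

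**Figure D3:**
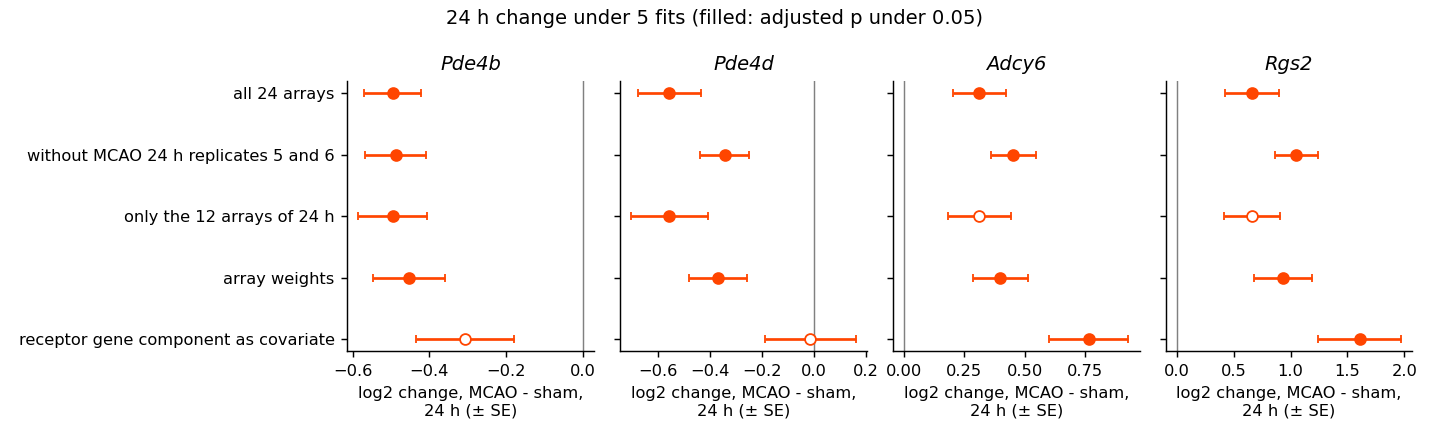
Log2 change at 24 h, MCAO minus sham, with its SE, for the 4 genes that passed the test, under 5 fits; filled points have an adjusted p under 0.05. Pde4b and Pde4d lose the call with the receptor gene component as a covariate, where Pde4d sits at -0.01, and Adcy6 and Rgs2 lose it when only the 12 arrays of 24 h are fitted.

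At 72 h, 2.35% of all genes passed the test, 1.17% rose and 1.19% fell, and 3.54% had groups that did not overlap. None of the 7 genes did either. In the comparison of the sham groups 0.0208% of all genes passed, and none of the 7. The comparisons share arrays: the sham groups enter both the MCAO effects and the difference between the times.

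The arrays were searched for the genes most like each gene that passed at 24 h in their pattern over all 24 arrays. Likeness was the root mean square (RMS) difference between values centred on each gene's mean. The search left out the genes described here and predicted or unnamed symbols. For Rgs2 the nearest was Sgk1, a kinase gene induced by glucocorticoids, with an RMS difference of 0.35, where the values of Rgs2 had an RMS of 0.54 about their own mean. Klk1b26 and Gpr52 were almost as near to Rgs2, at 0.36 each. For Adcy6 it was Mllt6, with an RMS difference of 0.15 against an RMS of 0.27. For Pde4b it was Cfc1 (0.11 against 0.21) and for Pde4d Zbtb7a (0.11 against 0.31). The third nearest to Pde4d was the odorant receptor gene Olfr661 (0.13). These genes were picked for their likeness, so their own changes are no separate result.

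The rest of the pathway was read from 13 lists of genes with 126 members, of which 115 had a row by symbol. The lists were chosen with earlier results of these data known, so their share of passing genes is no test of the pathway. At 24 h 20 of the 115 rose and 18 fell, 33.0% in all, beside 21.8% of all genes and 28.6% of those in the range of the 7. The median change was -0.02 against 0.01 over all genes. At 72 h 5 rose and 0 fell, 4.35% in all, beside 2.35% of all genes and 4.56% of those in the range of the 7. The median change at 72 h was 0.03 against 0.00 over all genes. The counts at 24 h depended on the fit. Without arrays 5 and 6, 17 rose and 18 fell, while 5856 of all genes passed. When only the 24 h groups were fitted 10 rose and 7 fell, with 2194 of all genes passing, and with array weights 12 and 11, with 3259. With the covariate 3 rose and 2 fell, with 321 of all genes passing. Of the 38 genes that passed at 24 h, 24 passed again without arrays 5 and 6, and 5 with the covariate: Nr4a1, Per1, Sik1, Gng12 and Pkia. The other 33, among them Pnmt, Adcy4, Pde4a, Prkar1a, Popdc3 and Nr4a3 below, did not pass with the covariate.

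Among genes of catecholamine synthesis and clearance 1 of 9 rose and 2 fell at 24 h. Pnmt, the enzyme that makes adrenaline from noradrenaline, rose by 0.72 (SE 0.15, adjusted p = 0.00184), from 3.81 ± 0.08 to 4.53 ± 0.48 (SD, n = 6 each). The vesicle transporter gene Slc18a2 fell by 0.30, and Th, the gene of the rate-limiting enzyme, fell by 0.16, from levels of 4.02 and 3.79 in sham hearts. For scale, the means of the odorant and vomeronasal receptor genes reached 3.96 at their 95th percentile. Of the other adrenergic receptors only Adra2c was matched by symbol, at 3.58 in sham and 3.52 after MCAO at 24 h (adjusted p = 0.537).

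Of the G protein subunits 1 of 9 rose, the Gq family gene Gna11 (0.31), and 1 fell, Gng12 (-0.37). Among the other cyclases 1 of 7 rose: Adcy4, by 0.57 (SE 0.10, adjusted p = 0.000552). Of receptor kinases and arrestins, which silence active receptors, Grk6 (0.43) and Grk4 rose and none of 6 fell. Grk4 stood at 3.36 in sham and 3.67 after MCAO, within the range of the odorant and vomeronasal receptor genes in both groups. Of 12 other RGS genes Rgs19 (-0.31) and Rgs16 fell and none rose, Rgs16 from the low level of 4.05 to 3.86.

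The other phosphodiesterases moved both ways at 24 h, with 2 of 13 up and 2 down. Pde4a, of the same family as Pde4b and Pde4d, fell by 0.67 (SE 0.13, adjusted p = 0.000703), from 7.63 ± 0.23 to 6.96 ± 0.22 (SD, n = 6 each). Pde7b fell by 0.48, while Pde8a rose by 0.40 and Pde3b by 0.31. At 72 h Pde4a still stood lower after MCAO but missed the threshold (-0.45, adjusted p = 0.0559), and Pde2a rose by 0.45 (adjusted p = 0.00406).

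Of 9 genes for PKA subunits and inhibitors 3 fell and 1 rose at 24 h. Prkar1a, a regulatory subunit that holds the kinase inactive, fell by 0.74 (SE 0.12, adjusted p = 0.000175), from 9.20 ± 0.22 to 8.46 ± 0.33 (SD, n = 6 each). The catalytic subunit gene Prkacb fell by 0.80 (SE 0.19, adjusted p = 0.00419), and the inhibitor gene Pkia by 0.38. The regulatory subunit gene Prkar1b rose by 0.37, and Prkaca, the main catalytic subunit gene of heart, changed by -0.27 (adjusted p = 0.245). With the covariate Prkar1a was at -0.35 (adjusted p = 0.381) and Prkacb turned to 0.23 (adjusted p = 0.664), while Pkia was at -0.79 (adjusted p = 0.0427).

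Of 11 genes for anchoring proteins, which tether PKA, 4 fell and 1 rose. Akap1 (-0.42), Akap5 (-0.41), Akap6 (-0.35) and Akap12 (-0.28) fell, and Akap9 (0.28) rose. Of 6 other cAMP effectors Popdc3, a cAMP-binding Popeye protein gene, rose at 24 h (0.57, adjusted p = 0.000866) and at 72 h (0.44, adjusted p = 0.0299). Rapgef3, which encodes the exchange factor Epac1, rose by 0.37 at 24 h. Of 12 cardiac PKA substrates and phosphatase genes 3 fell, namely Rrad (-0.69), Cacnb2 (-0.37) and the calcium release channel gene Ryr2 (-0.18), and 1 rose, Ppp2ca (0.23).

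The largest changes of the pathway were in CREB target genes, 5 of which rose and 1 of which fell at 24 h, of 12. Since this list too was chosen with earlier results known, large changes in it are no separate evidence about cAMP or CREB. Nr4a1, an orphan nuclear receptor gene, rose 5.20-fold, from 6.64 ± 0.25 to 9.02 ± 0.32 (SD, n = 6 each), a change of 2.38 (SE 0.30, adjusted p = 1.51e-05). The clock gene Per1 rose 3.00-fold (adjusted p = 3.65e-05), Nr4a3 2.29-fold (adjusted p = 0.000671) and the kinase gene Sik1 2.05-fold (adjusted p = 4.93e-05). Fosb fell from 4.07 to 3.85, also a low level, and Fos was at -0.28 (adjusted p = 0.142). Several of these genes also respond to glucocorticoids or other signals, and none of the values measures the CREB protein or its activity. The RNA of Creb1 was at -0.10 at 24 h (adjusted p = 0.618).

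At 72 h Per1 rose 1.92-fold (adjusted p = 0.0187) and Sik1 1.69-fold (adjusted p = 0.00453), and Nr4a1, at 0.94, did not pass (adjusted p = 0.123). Nr4a3 was at -0.26, and its effect differed between the times by -1.46 (adjusted p = 0.0221). Of 8 CREB family and coactivator genes Ep300 (0.38), Crtc2 (0.31) and Crebbp (0.24) rose at 24 h, and Crtc2 rose at 72 h (0.40, adjusted p = 0.0418). With the covariate Nr4a1 (2.77, adjusted p = 0.0176), Sik1 (1.37, adjusted p = 0.0147) and Per1 (1.64, adjusted p = 0.0444) still passed at 24 h.

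**Figure D4:**
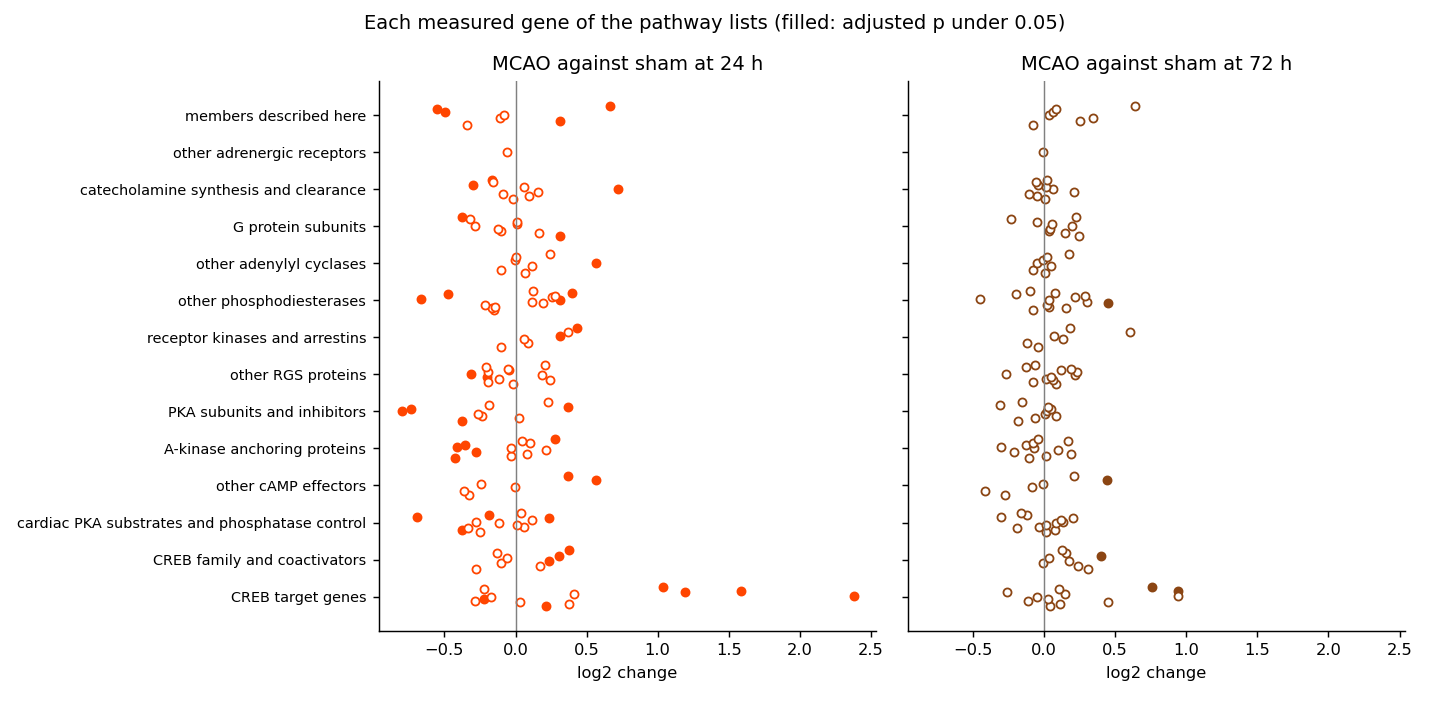
Log2 change from sham to MCAO of every measured gene of the 13 pathway lists and of the 7 genes, at 24 h (left) and 72 h (right); filled points have an adjusted p under 0.05. The points of most lists lie on both sides of 0, and the largest changes are those of 4 CREB target genes at 24 h, led by Nr4a1 at 2.38.

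Markers of other cells moved at 24 h beside these results. As given above, 10.8% of all genes fell and 11.1% rose. Of 7 fibroblast markers 4 fell, among them the collagen genes Col3a1 (-1.63), Col1a2 (-0.91) and Col1a1 (-0.83). Dcn was at -0.07 (adjusted p = 0.551), and 2 of the 7 stood higher. The mean of the list on an array ran from 7.64 to 8.13 in sham and from 6.65 to 7.49 after MCAO. Of 8 cardiomyocyte markers 3 fell and none rose, with array means from 12.73 to 12.82 in sham and from 12.42 to 12.74 after MCAO. Of 6 smooth muscle and pericyte markers 2 fell, Acta2 (-0.84) and Tagln (-0.50), and 2 stood higher, among them Cspg4 (0.27, adjusted p = 0.098). Their array means ran from 8.10 to 8.41 in sham and from 7.89 to 8.06 after MCAO. Neither these nor the fibroblast array means overlapped between sham and MCAO. Of 6 endothelial markers Kdr fell (-0.88) and Pecam1 (0.27) and Tie1 (0.46) rose, with array means from 8.78 to 9.14 and from 8.82 to 8.98. Of 6 macrophage markers none passed. Single markers of neutrophils (Retnlg, from 3.42 to 4.06), B cells (Ms4a1, from 3.32 to 3.51) and adipocytes (Cidec, from 3.76 to 4.16) rose at low levels, and the nerve marker Th fell. None of 5 atrial markers passed at 24 h or 72 h, and their array means varied widely: the highest array mean was 6.67 in sham 24 h, 9.21 in MCAO 24 h, 8.72 in sham 72 h and 9.10 in MCAO 72 h, and the lowest lay between 5.19 and 5.76. At 72 h, where 2.35% of all genes passed, 1 of 7 fibroblast markers fell and 5 stood lower (median change -0.64). Of 6 endothelial markers 1 rose and 1 fell. No marker of the other lists passed at 72 h, though 7 of 8 cardiomyocyte markers (median -0.13) and 6 of 6 macrophage markers (median -0.25) stood lower. The part of these cells in the changes of the 7 genes was not tested.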

How the data were processed

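Hearts from 4 groups of 6 samples were measured on Affymetrix arrays; groups come from the titles and treatment labels, and replicate numbers do not pair samples. The authors deposited log2 values per Entrez Gene identifier, 24973 rows with no missing values; 23 of 24 columns held the same sorted values. For array software and normalization settings, nothing is given in the sources used here, and arrays carry no read depth, so their number limits the precision. The platform annotation gave 1 symbol to 24015 identifiers and none here to 958; for 4 symbols with several identifiers the highest mean was kept, leaving 24011 genes. No dim gene was left out. limma 3.58.1 in R 4.3.3 was fitted to all 24 arrays with 4 group means (20 residual degrees of freedom) and tested on simulated data. The simulation gave every group the same SD per gene, so it does not check the fit under the wider spread of MCAO 24 h. The genes, the pathway lists, the other fits and the decision to leave out MCAO 24 h arrays 5 and 6 were chosen with earlier results of these data known. All members with a row are named. Of each pathway list, genes past the threshold are named, at most 4 per list and time by smallest p. For each member past it the 3 genes with the smallest RMS difference were found, of which the nearest is named. Olfr661, Klk1b26 and Gpr52 were added after their values were seen. Akap12, Fosb and genes given as not passing lie outside that rule. Promoters are RefSeq's, GRCm38.p6.

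Replicate numbers were checked: deviations from the group mean correlated between arrays of the same number at r from -0.05 to 0.01 at 24 h and from -0.07 to 0.14 at 72 h. Alternatives were a trended and robust prior, median centring, a further quantile normalization, leaving out dim genes, other handling of identifiers, array weights, a replicate block, the receptor gene covariate, fewer groups, and leaving out each array.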

Additional observations from a re-analysis of the deposited data

Results flagged for a closer look

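In sham hearts at 24 h, Pde4b was 5.19 on array 1, far below the other 5 arrays of that group. In MCAO hearts at 72 h, Adcy5 was 7.17 on array 6, far above the other 5. Both met Dixon's criterion at the 95% level, as 2 of 28 gene and group combinations did, and chance alone meets it in about 1 of 20 groups. The MCAO effect on Pde4b differed between 24 h and 72 h by 0.56 on the log2 scale in the limma test of the difference (adjusted p = 0.0100).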

How the results depend on the processing

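All genes passing at 24 h numbered 5237, and 3439 with dim genes left out, 3259 with array weights, 321 with the covariate and 2194 with only the groups compared; members passing were 4, and 2 with the covariate or only the groups compared. At 72 h 565 became 1905 with array weights, 1103 without MCAO 24 h arrays 5 and 6 and 1410 with only the groups compared, with 2, 1 and 1 members in place of 0. For the difference between the times 430 became 218 with dim genes left out, 5 with the covariate and 1079 without arrays 5 and 6, with 0 members passing under the covariate. For the sham groups 5 became 27 with array weights, 1 with the replicate block and 1 with only the groups compared. With the replicate block 2 members passed the difference between the times, Pde4d joining Pde4b (0.64, adjusted p = 0.0329); the block changed no other member's call, and 0 of 6 arrays at 24 h and 2 of 6 at 72 h correlated best with their own number.

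Leaving out 1 array gave 197 to 1012 genes for the difference and 1 to 6 for the sham groups, and 2 to 4 members at 24 h, 0 to 1 at 72 h and 1 to 3 for the difference. Signs turned, in values that never passed, for Adra1b at 24 h (0.21 with the covariate), for Adcy5 at 24 h (0.59 with the covariate, 0.10 without arrays 5 and 6) and for the Adcy5 difference (-0.63 and -0.18). They also turned when 1 array was left out for Crem at 24 h (-0.16 to 0.0068) and for the differences of Adcy6 (-0.17 to 0.0015) and Rgs2 (-0.25 to 0.10). The causes were not tested.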
